A study of Mus musculus with 2 samples.

Results

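The 10 genes described here encode ligands with which one cell tunes the activation of a T cell: Cd80, Cd86, Cd83, Icosl, Cd274, Pdcd1lg2, Cd276, Vtcn1, Tnfrsf14 and Icam1. They were chosen as a list of gene symbols and matched to the platform annotation of the array. All 10 were found, on 11 probe sets with a single symbol, among 19938 genes with such a probe set. Cd80 had 2 probe sets and the other genes 1 each, and 0 probe sets listed one of these symbols beside other genes.

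The RNA came from cortical thymic epithelial cells (cTECs), the stroma on which immature thymocytes undergo positive selection. Each of the 2 groups had 1 Affymetrix array and both were NOD mice, a strain prone to autoimmune diabetes, at day 7. The transgenic group (Tg) carries Aire, the transcriptional regulator of medullary epithelium, in a semi-knockin under the promoter of β5t (Psmb11), a proteasome subunit made in the cortex, and its array held cells labelled as coming from 7 Tg. The control group (non-Tg) is labelled only as control, and its array held cells from 5 non-Tg. These numbers were read as mice pooled before RNA extraction, so the spread between mice cannot be recovered, and no p-value, interval or replicate error exists for any ratio below.

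Costimulatory ligands supply the second signal that a T cell needs beside its antigen receptor, and coinhibitory ligands of the same B7 family restrain it. CD80 and CD86 both bind the activating receptor CD28 and the inhibitory receptor CTLA-4, and PD-L1 (Cd274) and PD-L2 (Pdcd1lg2) both bind PD-1. In the thymus, CD80 and CD86 are known mainly from medullary epithelium, dendritic cells and B cells, whereas PD-L1 is also found in the cortex. Whether cTECs that make Aire take on ligands of the medulla is a question that this comparison raises. With 1 array of pooled RNA per group, it cannot be answered here.

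Values are log2 levels as deposited, and a ratio is Tg over non-Tg on the log2 scale after values under 4.80, the 25th percentile of both arrays together, were raised to that floor. A gene passed the filter if it reached the median of its array (5.43 for Tg, 5.45 for non-Tg) on at least 1 array, as 11422 genes did. Of the 10 ligands, 6 passed: Cd86, Cd83, Cd274, Cd276, Tnfrsf14 and Icam1. Probe sets differ in how strongly they bind, so the levels of different ligands are not ranked against each other.

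On the whole the ligands differed little between the arrays, with 1 exception. Of the 6 past the filter, 5 had ratios from -0.09 to 0.16 and Cd86 had 0.72. Only Cd86 was 1.5-fold or more higher in Tg, a size reached by 4.74% of all genes past the filter, and 0 of 6 were 1.5-fold or more lower, against 3.13% of all genes. At 2-fold, 0 of 6 were higher and 0 lower, against 0.797% and 0.376% of all genes. The median ratio of the 6 was 0.06 and that of all genes past the filter 0.01. A ratio within 0.2 of 0 was found for 5 of the 6 ligands and for 52.7% of all genes past the filter.

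**Figure D1:**
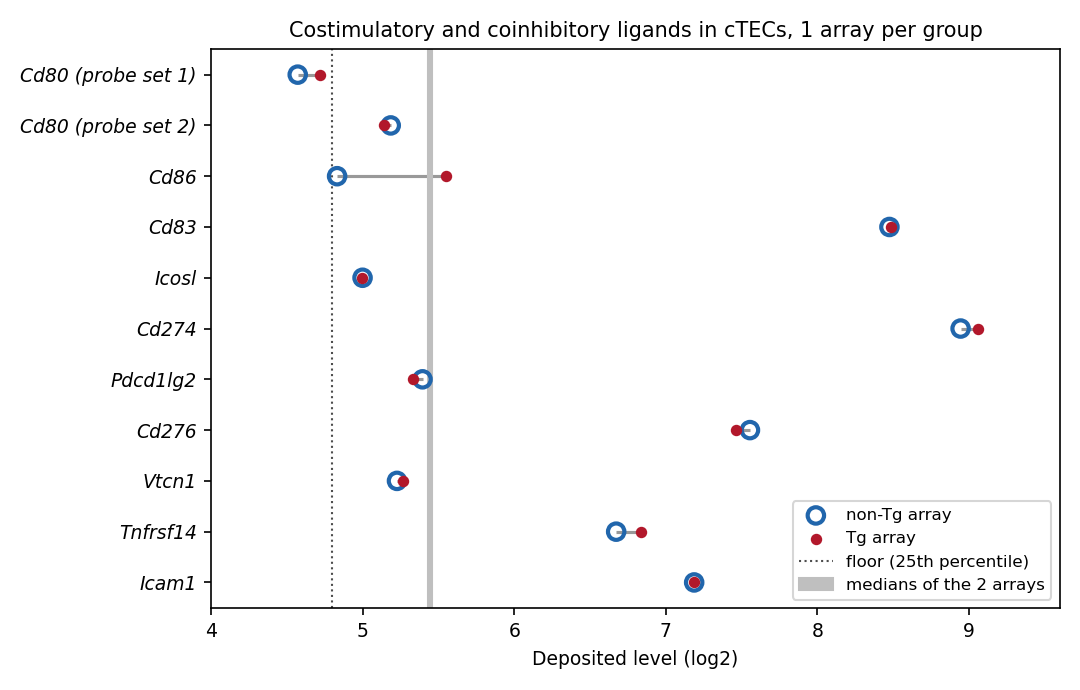
Deposited log2 level (x axis) of each of the 11 probe sets of the 10 ligands (y axis) on the non-Tg array (open blue circles) and the Tg array (filled red circles), 1 array per group and no error bars. The dotted line marks the floor of 4.80 and the grey band the medians of both arrays (5.43 and 5.45). Cd86 is the only ligand whose 2 values lie on opposite sides of the band, at 4.83 and 5.55.

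Cd86, which encodes the B7-2 ligand of CD28 and CTLA-4, had a level of 5.55 on the Tg array and 4.83 on the non-Tg array (probe set 10439312). The Tg value lay just above the median of its array, higher than 53.5% of its probe sets, and the non-Tg value was just above the floor, higher than 26.0%. The ratio of 0.72 is 1.64-fold, and 295 genes past the filter, 2.58% of them, had a ratio at least as high. The gene passed the filter through the Tg array alone, so it could pass only by standing higher there. With the floor at the 50th percentile instead, its ratio was 0.10. The spread between 2 probe sets of 1 gene on these arrays gave an SD of 0.30 per ratio, which holds no variation between mice, pools or amplifications.

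Cd80, the B7-1 partner of Cd86, was dim on both arrays. Its probe set matched to the RefSeq mRNA (10435704) had 4.71 on the Tg array and 4.57 on the non-Tg array. Both values lie under the floor and give no ratio. The other probe set (10435712), annotated to 2 sequence records and to no RefSeq mRNA, had 5.14 in Tg and 5.18 in non-Tg, a ratio of -0.05. A Cd80 signal above the median of the array was therefore not seen in either group. Whether Cd80 and Cd86 differed in their response cannot be tested with 1 array per group.

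The higher Cd86 value was set beside markers of cells that are known to carry CD86. Of 16 dendritic cell and macrophage markers, 6 passed the filter. Of the 6, 0 were 1.5-fold apart, beside 4.74% of all genes higher in Tg and 3.13% lower. The summed signal of all 16 (linear units, background included) was 667 for Tg against 716 for non-Tg. The integrin gene Itgax (CD11c), at 4.66 for Tg against 4.72 for non-Tg, and the dendritic cell receptor gene Clec9a, at 4.58 and 4.69, stayed below the floor in each group. Flt3, the receptor of a dendritic cell growth factor, had the highest ratio of these markers past the filter, 0.38 (5.60 for Tg against 5.22), and passed through the Tg array alone. The adaptor gene Tyrobp had the lowest, -0.58. Lyz2, the lysozyme gene of myeloid cells, had 5.16 in Tg and was under the floor at 4.73 in non-Tg, and did not pass. Mpeg1 (-0.42) and C1qa (-0.31) were, like Tyrobp, lower in Tg. Mpeg1 and C1qa passed through the non-Tg array alone, so they could pass only by standing lower in Tg. Of the 6 markers past the filter, 4 ratios were below 0 and 2 above, with a median of -0.27. Over all 16 measured markers the median ratio was 0.001. Without 2 of the lower markers, Tyrobp and the chemokine receptor gene Ccr7 (-0.23), the summed signal was 506 for Tg against 505 for non-Tg. Which genes are left out sets this sum: Mpeg1 and C1qa, with lower ratios than Ccr7, were kept. Of 7 measured B cell markers, 2 passed, the transcription factor genes Pax5 (-0.04) and Ebf1 (-0.36), and the summed signal was 224 for Tg against 241 for non-Tg. The B cell genes Cd79a, Ms4a1 and Fcer2a were under the floor on both arrays. The part of either cell type in the Cd86 value was not tested.

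Medullary epithelium markers had a summed signal of 2946 in Tg and 2489 in non-Tg over 9 measured genes, of which all passed the filter. Aire itself had 7.33 against 6.06 for non-Tg, a ratio of 1.28 in the direction of the labels. The protease gene Ctss had 6.71 and 5.94 (0.77, 1.70-fold), and was the only other marker of this list 1.5-fold or more higher. Tnfrsf11a, which encodes the receptor RANK of medullary epithelium, had the lowest ratio, -0.39. Without Aire and the basal keratin gene Krt5 (0.34), both higher in Tg, the sum was 1084 for Tg against 1083 for non-Tg. That sum depends on which genes are left out. Trp63, the brightest of the 7 genes kept, was lower in Tg, with 9.13 against 9.25 for non-Tg (-0.12). The part of such cells in the Cd86 value was not tested either. In pooled bulk RNA, more cells of a type and more RNA per cell cannot be told apart.

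The cells carried the markers of their label. All 9 cortical epithelium markers passed the filter with ratios from 0.05 (Krt8) to 0.37 (Psmb11) and a summed signal of 23721 in Tg and 21996 in non-Tg. Thymocyte RNA was present too. Of 10 measured thymocyte markers 9 passed, with ratios from -0.68 (Thy1, 1.60-fold lower in Tg) to 0.18 (Cd4), and their summed signal was 5093 in Tg and 5875 in non-Tg. Endothelial markers (6 of 6 past the filter, -0.34 for Eng to 0.48 for Pecam1) summed to 607 in Tg and 602 in non-Tg, and fibroblast markers (5 of 7, -0.05 for Col1a1 to 0.51 for Postn) to 814 and 682. Eng passed through the non-Tg array alone. Ligands such as Cd274 and Icam1 are known from several of these cell types, and the share of each type in their values was not tested.

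Cd274, which encodes PD-L1, was well above the median on both arrays. Probe set 10462390 gave 9.06 for Tg against 8.95 for non-Tg, higher than 94.5% and 94.2% of the probe sets of the respective array. The ratio was 0.11, or 1.08-fold, and 35.3% of genes past the filter had one at least as high. Pdcd1lg2, the gene of the other PD-1 ligand, PD-L2, had 5.33 for Tg against 5.39 for non-Tg (probe set 10462398), a ratio of -0.06 with both values below the median. Neither gene of the pair was 1.5-fold apart between groups.

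Icam1, which encodes the adhesion ligand of the integrins LFA-1 and Mac-1, had 7.19 on both arrays (probe set 10583519). The 2 deposited values were identical to the last digit. Such identity was found for 809 of 28856 probe sets (2.80%) and for 113 genes past the filter (0.989%), so it is a property of some values in the table and not of Icam1 alone.

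Tnfrsf14 encodes HVEM, a member of the TNF receptor family that acts as a ligand when it binds BTLA or CD160 on T cells. Probe set 10519060 gave 6.84 for Tg against 6.67 for non-Tg. The ratio of 0.16, 1.12-fold, was the second highest of the ligands past the filter, and 28.8% of genes past the filter had one at least as high. Cd83 encodes a surface protein that, in thymic epithelium, is known to slow the turnover of MHC class II by opposing the ubiquitin ligase MARCH8. Cd83 had 8.49 in Tg and 8.48 in non-Tg (probe set 10404840), a ratio of 0.01, with the values above 92.1% and 92.4% of the probe sets of their arrays.

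Cd276 encodes B7-H3, a B7 family member of wide tissue distribution. It had 7.46 in Tg and 7.55 in non-Tg (probe set 10594092), and its ratio of -0.09 was the only one below 0 among the ligands past the filter. Vtcn1, the gene of the inhibitory ligand B7-H4, had 5.26 in Tg and 5.22 in non-Tg (probe set 10494761). Icosl, which encodes the ligand of the costimulatory receptor ICOS, had 4.99 in Tg and 5.00 in non-Tg (probe set 10364361). Both lay between the floor and the median on each array, with ratios of 0.04 and -0.01. For the 4 ligands below the median on both arrays, Cd80, Icosl, Pdcd1lg2 and Vtcn1, the ratios are given as values only.

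**Figure D2:**
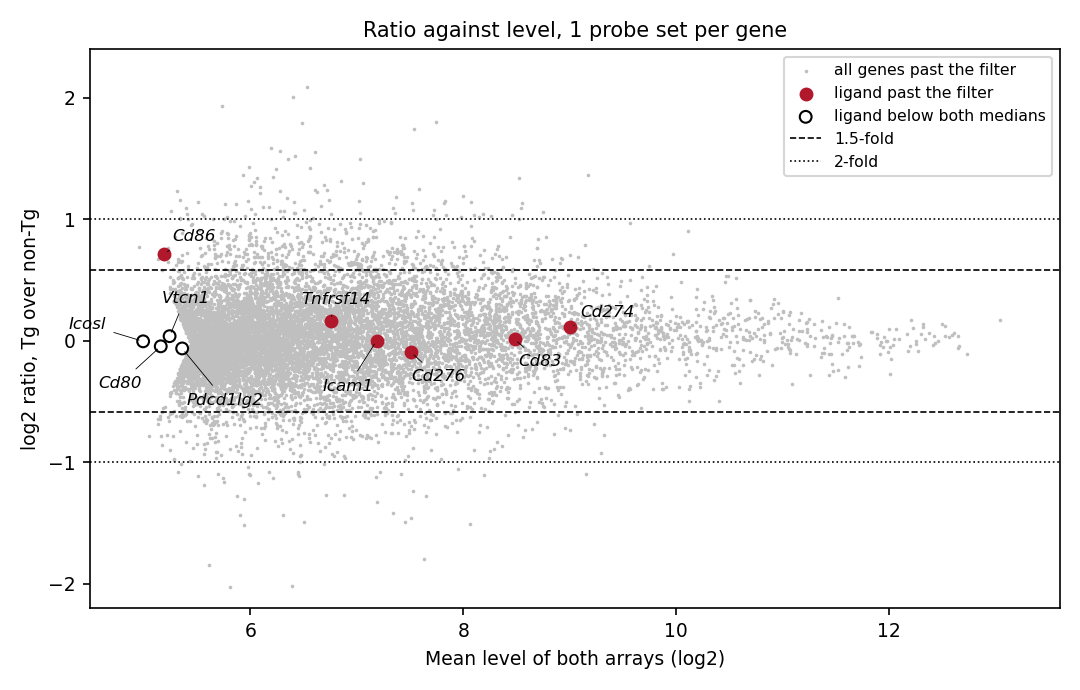
Log2 ratio of Tg over non-Tg (y axis) against the mean log2 level of both arrays (x axis), with 1 probe set per gene. Grey points are the 11422 genes past the filter, red points the 6 ligands past it and open circles the 4 ligands below both medians; dashed and dotted lines mark 1.5-fold and 2-fold. Cd86 lies above the upper dashed line at 0.72 and near the dim end, and the other 9 ligands lie between -0.09 and 0.16.

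Cd274, Icam1 and Tnfrsf14 were above the median on both arrays, and Cd274 and Icam1 are textbook targets of interferon gamma and NF-κB signalling. Their RefSeq promoter stretches (GRCm38.p6) are shown because the signalling genes described next act through motifs of this kind, and none of these data measure the promoters themselves. Each is the 250 bases before the annotated gene start, 5′ to 3′ on the strand of the gene, with motif matches in capitals: chr19:29367188-29367437 on the plus strand for Cd274, chr9:21015690-21015939 on the plus strand for Icam1, and chr4:154928078-154928327 on the minus strand for Tnfrsf14.
Cd274 upstream sequence: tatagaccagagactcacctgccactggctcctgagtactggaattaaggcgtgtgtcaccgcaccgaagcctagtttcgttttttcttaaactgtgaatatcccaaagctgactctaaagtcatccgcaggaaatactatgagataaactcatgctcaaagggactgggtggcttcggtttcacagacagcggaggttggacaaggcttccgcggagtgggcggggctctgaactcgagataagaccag
Icam1 upstream sequence: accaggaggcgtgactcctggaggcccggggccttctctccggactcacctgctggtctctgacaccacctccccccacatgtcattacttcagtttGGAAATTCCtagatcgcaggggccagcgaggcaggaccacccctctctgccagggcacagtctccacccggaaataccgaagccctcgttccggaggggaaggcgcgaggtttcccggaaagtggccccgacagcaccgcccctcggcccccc
Tnfrsf14 upstream sequence: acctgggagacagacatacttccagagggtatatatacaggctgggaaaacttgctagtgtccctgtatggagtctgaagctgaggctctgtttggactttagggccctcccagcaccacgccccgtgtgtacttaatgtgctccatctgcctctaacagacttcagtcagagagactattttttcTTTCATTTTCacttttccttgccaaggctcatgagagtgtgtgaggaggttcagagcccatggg

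The cores of 2 motifs were searched on both strands in the 8 ligand promoters held by the RefSeq table (Cd83 and Cd86 had no entry). The NF-κB core GGANNTTCC was found in Icam1, 153 to 145 bases before the start, and in 3.59% of all 32851 promoter stretches of that length. The pattern of this core matches on both strands at that place. The interferon-stimulated response element, searched as GAAA, any 2 bases, GAAA, was found on the opposite strand of Tnfrsf14, 64 to 55 bases before the start, and in 2.98% of all. The Cd274 stretch held 0 matches, which says only that these letters are not in that window. Of the 8 stretches, only those of Icam1 and Tnfrsf14 held a match, and both are among those printed. Cd276, also above the median on both arrays, held no match and is not printed.

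Genes of interferon and NF-κB signalling that are known to induce ligands of this list were measured on both arrays. Of 19 listed, 17 were measured and 17 passed the filter, with a median ratio of 0.14 beside 0.01 for all genes. After quantile normalization the list median was 0.10. Of the 17 ratios, 12 were above 0 and 5 below, beside 5778 above and 5531 below among all 11422 genes. At 1.5-fold, 1 was higher and 1 lower, beside 4.74% and 3.13% of all genes. Irf2, an interferon regulatory factor gene, was the only one 1.5-fold or more higher in Tg, at 7.83 and 7.23 (0.60), and it was under 1.5-fold after quantile normalization (0.55) and after centring by level (0.57). Ifngr1, the ligand-binding chain of the interferon gamma receptor, was the only one 1.5-fold or more lower, with 8.63 against 9.37 for non-Tg (-0.74, 1.67-fold), and its partner chain gene Ifngr2 had a ratio of 0.28. The kinase genes of this receptor, Jak1 and Jak2, had 0.20 and 0.25. Irf1, the factor known for driving Cd274, had 0.14, and its other probe set 0.34. The NF-κB subunit genes Rela, Relb, Rel and Nfkb2 had ratios from -0.08 to 0.16, and Ltbr, the lymphotoxin β receptor gene, had 0.51.

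The receptors that bind these ligands sit mainly on thymocytes and T cells, whose RNA was present on both arrays. Of 12 listed receptor and partner genes 12 were measured, 5 passed the filter and had a median ratio of 0.11, with 0 of the 5 differing by 1.5-fold. Cd28, the receptor of CD80 and CD86, had 7.90 for Tg against 8.14 for non-Tg, the lowest ratio of the 5 (-0.24). Ctla4, the inhibitory receptor gene for the same ligands, had 5.55 and 5.44 (0.11), close to the median of the arrays, and passed through the Tg array alone. The LFA-1 subunit genes Itgal and Itgb2 had 0.20 and 0.02, and Rgmb, which encodes a binding partner of PD-L2, had the highest ratio, 0.30. The PD-1 gene Pdcd1 (4.89 in Tg, 5.07 in non-Tg), the ICOS gene Icos (5.21 and 5.20) and the HVEM partner genes Btla (4.53 and 4.67), Cd160 (4.74 and 4.88) and Tnfsf14 (4.70 on both) were below the median on both arrays.

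Of 25 other ligands of the same kind listed, 24 were measured, 12 passed the filter and had a median ratio of 0.05. Of these, 1 was 1.5-fold or more higher and 0 were lower, beside 4.74% and 3.13% of all genes. The higher one was Cd48, a ligand of CD2 and CD244 borne by blood cells, at 6.08 in Tg and 5.03 in non-Tg (1.05, 2.07-fold). Like Cd86 it passed the filter through the Tg array alone, and with the floor at the 50th percentile its ratio was 0.63. Tnfsf15, a TNF family ligand gene, had the next highest ratio, 0.47. The adhesion ligand genes Vcam1 and Alcam, both above 10 on each array, had 0.19 and 0.09, and Cd40, the costimulatory receptor of medullary epithelium and B cells, had -0.15. Cd24a, which encodes a surface glycoprotein that thymocytes carry too, had the lowest ratio, -0.20. The TNF family ligand genes Tnfsf4, Tnfsf8, Tnfsf18 and Cd70 were under the floor on both arrays, as were Vsig4, a B7-related gene of macrophages, and Ido1, which encodes a tryptophan-degrading enzyme.

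Surface levels of these ligands also depend on proteins that stabilise, degrade or shed them, and RNA says nothing of the protein at the surface. Of 9 such genes, 8 passed the filter, with a median ratio of 0.16. Of the 8, 0 were 1.5-fold or more higher and 1 was lower, beside 4.74% and 3.13% of all genes. Cmtm6, known for protecting PD-L1 from lysosomal breakdown, had 8.69 in Tg and 8.55 in non-Tg (0.14). Its relative Cmtm4 had 5.24 and 6.52 on its brighter probe set (-1.28, 2.43-fold lower in Tg), but 5.15 and 4.81 on the other (0.34), and the mean of both probe sets gave -0.47. The brighter probe set passed the filter through the non-Tg array alone and the other did not pass, so this gene gives no settled direction. Marchf8, the ubiquitin ligase opposed by CD83, had 0.18, and the sheddase gene Adam17 had the highest ratio, 0.51.

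**Figure D3:**
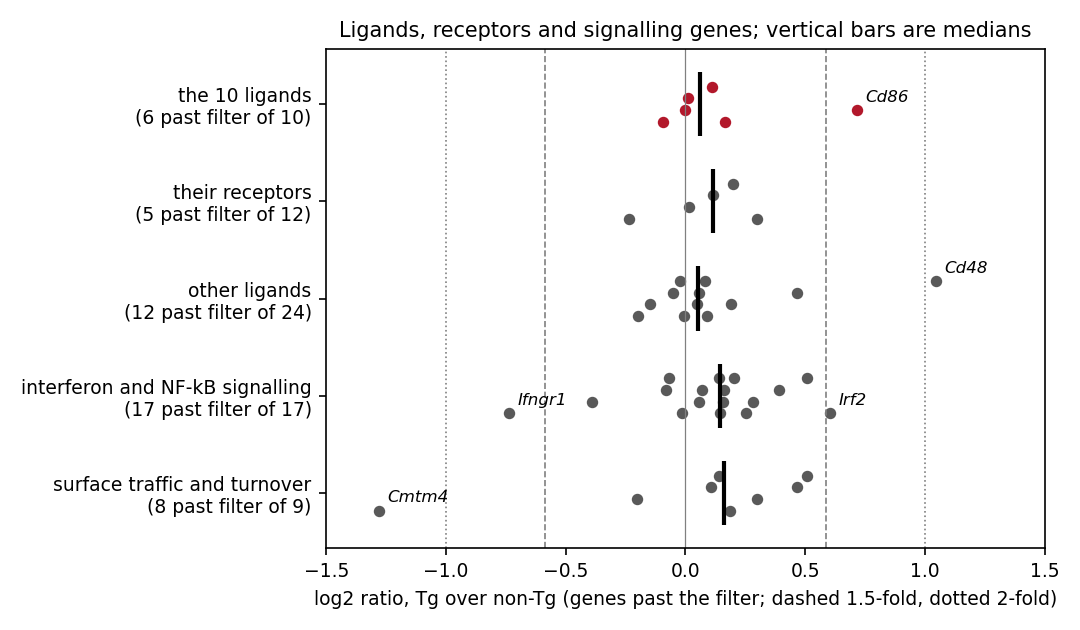
Log2 ratio of Tg over non-Tg (x axis) for each gene past the filter in the 5 lists (y axis), with the number past the filter of the number measured; points are spread vertically for legibility, black bars are list medians, and dashed and dotted lines mark 1.5-fold and 2-fold. The medians lie between 0.05 and 0.16, and the named points are the genes 1.5-fold or more apart, Cd86 at 0.72 among them.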

How the data were processed

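Levels were measured on 2 arrays, 1 per group. Per the labels' protocols, 400 pg of total RNA was amplified and biotin-labelled. The authors deposited 1 value per probe set, read as log2 from its range (4.22 to 13.7), for 28856 probe sets; how they corrected background and normalized is not stated in the labels. Probe sets with 1 symbol in GEO's platform annotation (21789) were used, and the brightest stood for a gene. All 10 gene IDs were found in the RefSeq gene table. The floor (25th percentile), the filter (50th percentile on at least 1 array) and the sizes of 1.5-fold and 2-fold replace a test, since there are no replicates. The ligands and lists were chosen with earlier results of these data known. Named were all ligands and, of each list, the highest and lowest ratio past the filter, genes 1.5-fold or more apart and partners of a ligand; further genes were named after their values were seen. List members without a probe set of their own were not analysed here. No scan dates were used here, so batch and group cannot be told apart, and the number of arrays limits precision. Alternatives were no floor, a higher floor, quantile normalization, lowess centring, other filters and other probe set choices. The calculations were tested on simulated data. The ratios were computed in Python 3.11.15 with pandas 2.3.3 and numpy 2.4.6, lowess came from statsmodels 0.14.6, ranks from scipy 1.17.1, and plots from matplotlib 3.10.9.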

Additional observations from a re-analysis of the deposited data

How the results depend on the processing

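With the floor at the 50th percentile, the Cd86 ratio was 0.10 and 0 ligands were 1.5-fold or more higher in Tg, since that floor lies above its non-Tg value. With the filter at the 75th percentile, 5 ligands passed, Cd86 was not among them and 0 were 1.5-fold or more higher; over all genes, 221 rather than 357 were 1.5-fold or more lower, of 5625 tested. The other 43 of 44 alternative ratios of the ligand probe sets stayed within 0.30 of the reported one. Of 64 alternative counts over ligands and over all genes, 61 stayed within 1.5 times, among them ligand counts that were 0 under every setting. Of the list medians, 97 of 98 stayed within 0.30. The exception was the receptor list, with -0.24 against 0.11 when the filter was at the 75th percentile. Only Cd28 of that list passed this filter, so the value is the Cd28 ratio alone. The reported list medians were all within 0.30 of 0, as were the ratios of all ligand probe sets but that of Cd86. Such a value could fall to 0 and still count as having stayed, so these counts overstate stability. Without a filter, the dendritic cell and macrophage median was 0.001 rather than -0.27, and it was counted as having stayed. Of 128 alternative counts in the 4 pathway lists, 119 stayed within 1.5 times, and the other 9 came from Cd48, Irf2 or Cmtm4 crossing a threshold. Most of the 128 were counts of 0 that stayed 0, so the 119 overstate how stable the list counts are. Centring on the median of all genes was added after seeing the data. No paired analysis was possible because each group has 1 array. No ratio has a replicate, and 4 of 10 ligands lay below the median of both arrays.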

Other observations

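The lists here were chosen after values had been seen. Receptors of the other costimulatory ligands had 7 of 15 measured genes past the filter, 2 of them 1.5-fold or more higher in Tg and 0 lower (4.74% and 3.13% of all genes past the filter), with a median ratio of -0.03. Tigit, an inhibitory receptor of T and NK cells for PVR and nectins, had 6.51 in Tg and 5.55 in non-Tg (0.97, 1.95-fold), while Cd96, a receptor for the same ligands, had 5.98 and 6.52 (-0.54) and the activating receptor gene Cd226 lay under the floor at 4.74 on both arrays. The ligand gene Pvr had 5.32 in Tg and 5.35 in non-Tg. Sirpa, the CD47 receptor of myeloid cells and neurons, had 7.82 and 7.13 (0.69, 1.61-fold), beside -0.01 for Cd47. Cd2, the receptor of CD48, had -0.20 while Cd48 had 1.05, and Cd6, the receptor of ALCAM, had 0.44.

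Butyrophilins and Skint proteins are B7-related molecules known for shaping γδ T cells. Among 13 measured genes, 3 passed the filter: Btnl9 at 5.99 in Tg and 5.56 in non-Tg (0.42), Btnl2 at 5.27 and 5.48 (-0.21), and Skint10 at 5.11 and 5.62 (-0.51). Btnl2 and Skint10 passed through the non-Tg array alone, so they could pass only by standing lower in Tg. Of the 3, 0 were 1.5-fold apart, beside 4.74% of all genes higher in Tg and 3.13% lower. The other members lay below the median on both arrays, 6 of them under the floor.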
